A study of Homo sapiens with 6 samples.

Results

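The adaptors and ubiquitin ligases that assemble on the TNF receptors were examined in PANC-1 cells after CD73 knockdown. They were taken by symbol from the deposited tables as 10 of 30735 genes: TRADD, FADD, RIPK1, TRAF1, TRAF2, BIRC2, BIRC3, CFLAR, MAP3K7 and IKBKG. PANC-1 is an established human cell line of pancreatic ductal adenocarcinoma (PDAC). RNA-seq covered 3 samples transfected with CD73 siRNA (CD73 knockdown cells) and on 3 samples transfected with negative control siRNA, all with Lipofectamine 3000 in serum-free medium. The labels name no genetic change and no further treatment in either group. The comparison asks whether genes of TNF-α signaling changed along with CD73. The siRNA sequence and the time from transfection to harvest are not given in the sources used here. It is likewise not given whether the 3 CD73 siRNA samples received the same duplex.

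When TNF-α binds TNFR1, the death domain adaptor TRADD is recruited and brings in the kinase RIPK1 and the adaptor TRAF2. TRAF2 carries the ubiquitin ligases cIAP1 (BIRC2) and cIAP2 (BIRC3), which attach ubiquitin chains to RIPK1. These chains hold the kinase TAK1 (MAP3K7) and the IKK subunit NEMO (IKBKG), and NF-κB and MAPK signaling follow. TNFR2 has no death domain and binds TRAF2, with TRAF1 and the cIAPs, directly. FADD joins RIPK1 and caspase-8 in a later cytosolic complex, where cFLIP (CFLAR) holds caspase-8 in check. BIRC3, TRAF1 and CFLAR are known as target genes of NF-κB.

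Expression is given in RPKM, read numbers scaled to merged exon length and to the counted reads of the sample, so levels can be compared roughly between genes. Merged exon length counts every annotated exon of a gene, which can understate genes with long merged exons, such as CFLAR. The totals behind the values were 15009113 to 16836207 reads per sample, and the Pearson correlation across tested genes on log2(RPKM + 1) was 0.961 to 0.989 between samples. NT5E, the gene of CD73, stood at 24.1%, 49.4% and 47.9% of the control with the same replicate number. In the limma test used below its log2 fold change was -1.225 (unadjusted p = 0.00144, limma adjusted p = 0.303). The targeted gene itself thus did not reach an adjusted p below 0.05. Among epithelial markers KRT8 and KRT18 were abundant, EPCAM and CDH1 did not exceed 1.71 RPKM, and KRT7 did not exceed 0.107 RPKM. The 6 epithelial markers summed to 71.4 to 102 RPKM in CD73 knockdown cells and 136 to 254 RPKM in controls. The 4 leukocyte markers in the files summed to at most 0.346 RPKM, the 3 endothelial ones to at most 0.0856 RPKM, and the 4 fibroblast ones to 9.01 to 19.2 RPKM, nearly all of it COL1A1. The part of these markers in the results below was not tested. In bulk RNA, fewer cells expressing a gene and less RNA per cell cannot be told apart.

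The promoters were searched for the κB consensus, the 10-base motif bound by NF-κB dimers. RefSeq promoter windows (GRCh38.p14, from 250 bases before to 50 after a gene start) were at hand for 9 of the 10 genes, TRADD being the one not matched. Both strands were searched. The BIRC3 window held 2 matches that do not overlap, 1 of the CFLAR windows held 1, and the windows of the other 7 genes held 0. A match was thus present in 2 of 9 genes, against 7.09% of all 27305 genes with a window. Of all 35116 windows, 5.91% held a match. The 9 genes had 1 to 4 windows each, BIRC3 1 and CFLAR 4. More windows give a gene more chances of a match, and nothing is read from the count. The matches are shown because BIRC3 had the smallest p of the 10 genes once replicate numbers were paired, with the κB match in capitals, 5′ to 3′ on the gene's strand:
BIRC3 site 199 bases before the start, chr11:102317275-102317304, forward strand, match on the reverse strand: tttgggtcatGGAAATCCCCgagtgggttt
BIRC3 site 135 bases before the start, chr11:102317339-102317368, forward strand, match on the reverse strand: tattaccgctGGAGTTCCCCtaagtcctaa
CFLAR site 97 bases before the start, chr2:201118609-201118638, forward strand, match on the forward strand: cgcggggggcGGGGAATTCCgcagacagga
The start named for each match is that of its RefSeq window. For neither BIRC3 nor CFLAR, which had 4 windows, is it the first base of the gene span given below. The CFLAR match (201118619 to 201118628) lies inside the gene span given below, 201116104 to 201176687. A match of letters is a description of the promoter window and does not show binding in these cells.

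All 10 genes were expressed above the filter of the test. Averaged over the 6 samples, BIRC2 was the most abundant at 67.3 RPKM, followed by BIRC3 at 29.9, MAP3K7 at 16.0, RIPK1 at 14.3 and TRAF2 at 13.5 RPKM. The other 5 genes were far lower, and IKBKG had 4.98, FADD 4.46, TRADD 3.55, TRAF1 1.90 and CFLAR 1.57 RPKM. The ranges over the 6 samples overlapped between all neighbours in this order except TRAF2 and IKBKG, where the lowest TRAF2 value was 12.3 and the highest IKBKG value 5.42 RPKM. Although their ranges overlapped, BIRC2 was above BIRC3 in each of the 6 samples. Between 80 and 7082 reads per sample stood behind the values. At the fewest reads counting error was 11.2% for TRADD, 10.2% for FADD and 9.49% for TRAF1, against 1.72% for BIRC2.

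None of the 10 genes passed the test for a difference between CD73 knockdown and control cells without the replicate number in the fit, and BIRC3 passed with it. With limma on log2(RPKM + 1), 0 of 10 had an unadjusted p below 0.01, the limit of the study's gene count, where 3.13% of the 12527 tested genes did. At an adjusted p below 0.05 the count was 0 of 10 and the background 0.00798%. At an unadjusted p below 0.05 it was 2 of 10, FADD and RIPK1, against 12.1% of all tested genes. Mean expression was lower after knockdown in 6 genes and higher in 4, against 6016 and 6511 of the 12527 tested genes. The median log2 fold change was -0.05, against 0.01 over all tested genes. When the replicate number entered as a block, 1 of 10 (BIRC3) had an unadjusted p below 0.01, against 7.57% of all tested genes, 4 of 10 had one below 0.05, against 23.3%, and 0 of 10 had an adjusted p below 0.05, against 0%. The exact permutation test of 3 samples against 3 cannot give a p below 0.1.

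**Figure D1:**
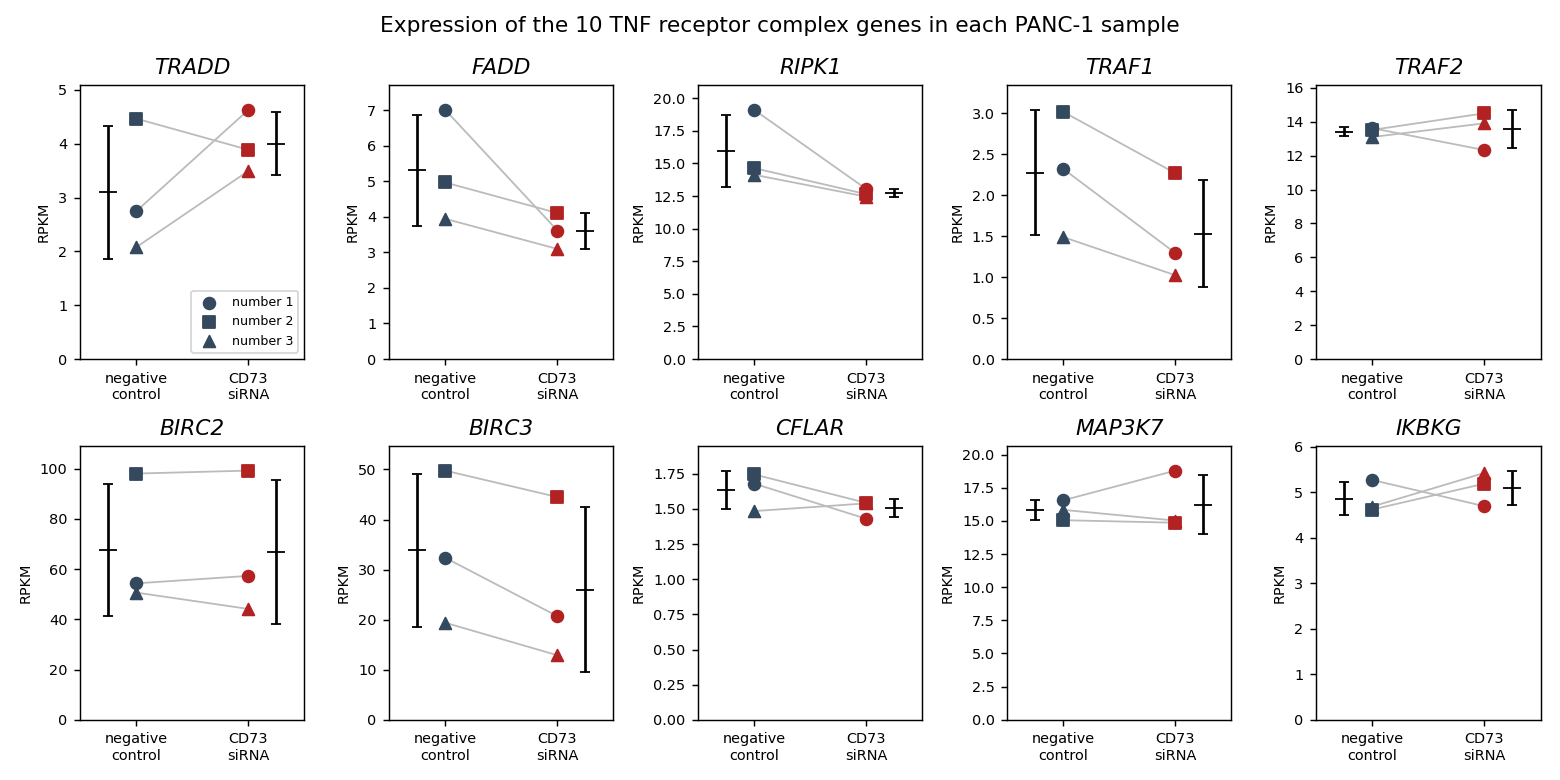
RPKM (linear axis from 0) of the 10 genes in the 3 negative control samples (dark) and the 3 CD73 siRNA samples (red), with the mean and SD of each group beside the points and grey lines joining samples of the same replicate number. The samples numbered 2 (squares) stand well above the others in both groups for BIRC2 and BIRC3, while TRAF2 and IKBKG are nearly level.

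Of the death domain proteins, FADD and RIPK1 had lower means after CD73 knockdown and TRADD a higher one, and none passed the limit. TRADD, the first adaptor on TNFR1, had 4.63, 3.89 and 3.49 RPKM in CD73 knockdown replicates 1, 2 and 3 and 2.75, 4.47 and 2.08 RPKM in control replicates 1, 2 and 3. Knockdown values lay above control replicates 1 and 3, and control replicate 2 lay among them, so the groups overlapped. The means were 4.0 ± 0.6 and 3.1 ± 1.2 RPKM (SD, n = 3 each). This gave a log2 fold change of 0.32 (standard error 0.21, limma adjusted p = 0.560). Without control replicate 2 the log2 fold change was 0.55, with an unadjusted limma p of 0.00911 and an adjusted p of 0.152. Between same-numbered samples TRADD differed by 0.59, -0.16 and 0.55 (log2, replicates 1, 2 and 3), so the direction turned in replicate 2. In GENCODE release 29 (GRCh38), TRADD (ENSG00000102871) lies on chromosome 16 (reverse strand, 67154180 to 67160298). It shares 4.91% of its exonic bases with FBXL8, which had 0.418 to 0.778 RPKM.

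FADD, the adaptor that recruits caspase-8, had the smallest limma p of the 10 genes. It had 3.62, 4.11 and 3.10 RPKM in CD73 knockdown replicates 1, 2 and 3 and 7.01, 4.97 and 3.95 RPKM in controls. Each knockdown sample was below the control with its number, and the groups overlapped only through knockdown replicate 2 and control replicate 3. The means were 3.61 ± 0.50 and 5.31 ± 1.56 RPKM (SD, n = 3 each), 68.0% of control. FADD reached a log2 fold change of -0.43 (standard error 0.18, limma adjusted p = 0.408, exact permutation p = 0.2). The log2 difference was -0.80 in replicate 1 and -0.22 and -0.27 in replicates 2 and 3. Without control replicate 1 the fitted log2 fold change was -0.24. FADD (ENSG00000168040) lies on chromosome 11 (forward strand, 70203163 to 70207390). Of its 1841 exonic bases, 54.9% are shared with the antisense gene AP000879.1, not analysed here. Because the strand setting of the counting is not given in the sources used here, reads of the pair cannot be told apart.

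RIPK1, the kinase that carries the ubiquitin chains of the complex, was the only one of the 10 genes in which the groups did not overlap. It had 13.03, 12.6 and 12.5 RPKM in CD73 knockdown replicates 1, 2 and 3 and 19.1, 14.6 and 14.1 RPKM in controls. All 3 knockdown samples lay close together just below the lowest control, and control replicate 1 stood apart above the rest. Every knockdown sample was below every control in 1 of the 10 genes and in 8.07% of all tested genes, and above every control in 0 of the 10 and in 10.3%. Groups did not overlap in either direction in 18.4% of all tested genes. The means were 12.7 ± 0.3 and 16.0 ± 2.7 RPKM (SD, n = 3 each), 79.6% of control. The log2 fold change was -0.30 (standard error 0.13, limma adjusted p = 0.411, exact permutation p = 0.1, the smallest possible). Without control replicate 1 it was -0.17. The reads behind RIPK1 numbered 842 to 1297 per sample. RIPK1 (ENSG00000137275) lies on chromosome 6 (forward strand, 3063991 to 3115187) and shares 5.63% of its exonic bases with an antisense gene that had at most 3 reads in any sample.

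The TRAF adaptors differed in how steady they were. TRAF1, which has no RING domain and pairs with TRAF2, had 1.29, 2.27 and 1.02 RPKM in CD73 knockdown replicates 1, 2 and 3 and 2.32, 3.02 and 1.49 RPKM in controls. Replicate 2 was the highest and replicate 3 the lowest in both groups, and the groups overlapped. The means were 1.53 ± 0.65 and 2.28 ± 0.77 RPKM (SD, n = 3 each), 67.1% of control. For TRAF1 this came to a log2 fold change of -0.38 (standard error 0.23, limma adjusted p = 0.538). The value was -0.58 without CD73 siRNA replicate 2, -0.23 without CD73 siRNA replicate 3 and -0.22 without control replicate 2. Within replicates 1, 2 and 3 TRAF1 stood at 55.7%, 75.1% and 68.7% of the control with the same number. TRAF1 (ENSG00000056558) lies on chromosome 9 (reverse strand, 120902393 to 120929173).

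TRAF2, the platform for the cIAPs, had 12.3, 14.5 and 13.9 RPKM in CD73 knockdown replicates 1, 2 and 3 and 13.6, 13.5 and 13.1 RPKM in controls. The groups overlapped fully, and the means were 13.6 ± 1.1 and 13.4 ± 0.3 RPKM (SD, n = 3 each). The log2 fold change was 0.01, with a 95% confidence interval from -0.22 to 0.25 (limma adjusted p = 0.968). Its sign turned when values were divided by size factors, to -0.01. TRAF2 (ENSG00000127191) is also on chromosome 9 (forward strand, 136881912 to 136926607).

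Among the adaptor and ligase genes first taken by symbol, the cIAP genes BIRC2 and BIRC3 had the highest mean RPKM. They were also the most uneven of these genes between replicate numbers. BIRC2 had 57.3, 99.3 and 44.2 RPKM in CD73 knockdown replicates 1, 2 and 3 and 54.4, 98.1 and 50.7 RPKM in controls. Samples of the same number were alike, and the samples numbered 2 lay far above the others in both groups. The means were 66.9 ± 28.8 and 67.7 ± 26.4 RPKM (SD, n = 3 each). The log2 fold change was -0.03, with a 95% confidence interval from -0.79 to 0.73 (limma adjusted p = 0.976). When the replicate number entered as a block, the interval narrowed to -0.23 to 0.16. Single samples decided its sign: the value was 0.26 without control replicate 2 and -0.36 without CD73 siRNA replicate 2.

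BIRC3 had 20.7, 44.5 and 12.9 RPKM in CD73 knockdown replicates 1, 2 and 3 and 32.4, 49.8 and 19.4 RPKM in controls. The order of the replicate numbers was the same in both groups, and each knockdown sample was below its control. BIRC3 stood at 64.0%, 89.4% and 66.5% of the control within replicates 1, 2 and 3, log2 differences of -0.62, -0.16 and -0.55. The means were 26.0 ± 16.5 and 33.8 ± 15.3 RPKM (SD, n = 3 each), the groups overlapped, and the log2 fold change of -0.44 had a standard error of 0.45 (limma adjusted p = 0.718). When the replicate number entered as a block, the standard error was 0.11, the unadjusted p was 0.00525 and the limma adjusted p was 0.119. BIRC3 was thus past the unadjusted limit only in the blocked fit, where 7.57% of all tested genes were and 3.3% were past it with a lower value. In the unblocked fit the value was -0.91 when CD73 siRNA replicate 2 was left out and -0.05 when CD73 siRNA replicate 3 was.

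BIRC3 and BIRC2 are neighbours on the forward strand of chromosome 11 in GENCODE release 29 (GRCh38). BIRC3 (ENSG00000023445) runs from 102317450 to 102339403 and BIRC2 (ENSG00000110330) from 102347211 to 102378670, with 7807 bp between them. They are paralogs, and neither shares exonic bases with another annotated gene. The ratio of BIRC3 to BIRC2 RPKM was 0.361, 0.448 and 0.292 in CD73 knockdown replicates 1, 2 and 3 and 0.595, 0.507 and 0.382 in controls. It was lower than its control in each replicate, while the groups overlapped (exact permutation test, p = 0.2), and it was computed after the values had been seen.

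**Figure D2:**
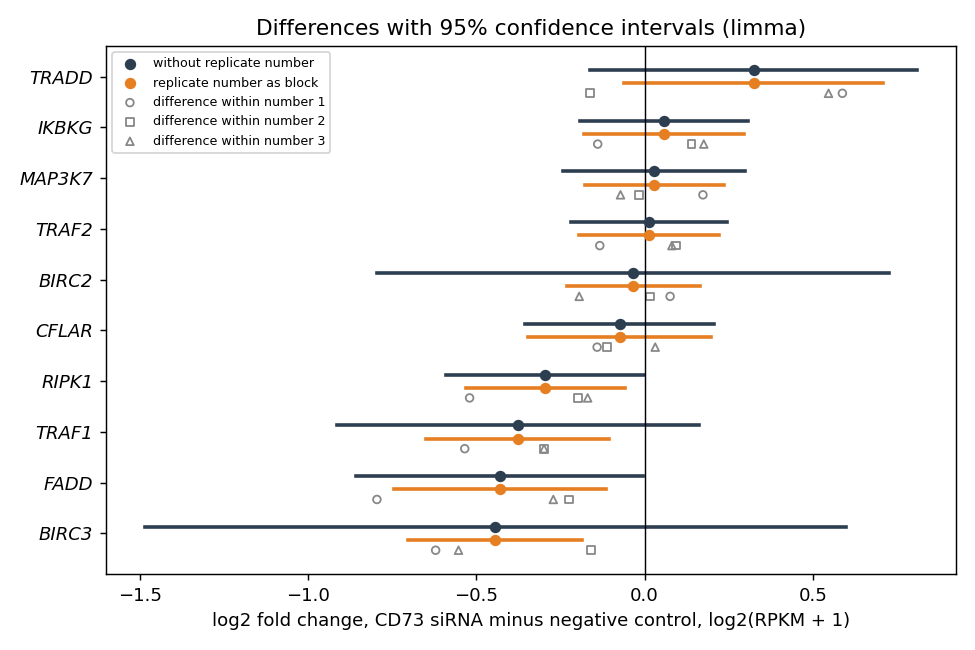
Log2 fold change of the 10 genes (x axis, log2(RPKM + 1), CD73 siRNA minus negative control; points) with 95% confidence intervals (lines) from limma without and with a block for replicate number, where open symbols are the differences within each number. The interval of BIRC3 shrinks most, those of BIRC3 and TRAF1 leave 0 in the blocked fit, and that of BIRC2 shrinks around 0. The intervals of FADD and RIPK1 exclude 0 in both fits.

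CFLAR, MAP3K7 and IKBKG were nearly level. CFLAR, the caspase-8 inhibitor, had 1.43, 1.54 and 1.54 RPKM in CD73 knockdown replicates 1, 2 and 3 and 1.68, 1.75 and 1.49 RPKM in controls. Only control replicate 3 lay within the knockdown values. The log2 fold change was -0.07, with a 95% confidence interval from -0.35 to 0.21 (limma adjusted p = 0.843). CFLAR (ENSG00000003402) lies on chromosome 2 (forward strand, 201116104 to 201176687). Its merged exons are 22529 bases long, so that 502 to 611 reads per sample stood behind its low RPKM, and 12% of these bases are shared with other annotated genes, among them CFLAR-AS1 with 2 to 5 reads.

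MAP3K7 (TAK1), the kinase that activates IKK, had 18.8, 14.9 and 15.0 RPKM in CD73 knockdown replicates 1, 2 and 3 and 16.6, 15.1 and 15.8 RPKM in controls. Knockdown replicate 1 was the highest sample and the groups overlapped. MAP3K7 had a log2 fold change of 0.03, with a 95% confidence interval from -0.24 to 0.30 (limma adjusted p = 0.942). MAP3K7 (ENSG00000135341) lies on chromosome 6 (reverse strand, 90513573 to 90587045).

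IKBKG (NEMO), the regulatory subunit of IKK that binds ubiquitin chains, had 4.69, 5.19 and 5.42 RPKM in CD73 knockdown replicates 1, 2 and 3 and 5.27, 4.62 and 4.68 RPKM in controls. The groups overlapped, and the log2 fold change was 0.06, with a 95% confidence interval from -0.19 to 0.31 (limma adjusted p = 0.861). IKBKG (ENSG00000269335) lies on chromosome X (forward strand, 154541199 to 154565046). Its pseudogene IKBKGP1 had 2.17 to 3.54 RPKM, and reads can be split between such near-identical copies, so the IKBKG level is uncertain.

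The intervals of these 3 genes and of TRAF2 set the size of a difference that the data still allow, and do not show that the groups were alike.

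Within replicate numbers, TRAF1, RIPK1, BIRC3 and FADD were lower than their control in all 3 pairs, 4 of 10 genes, where 24.5% of all tested genes were. No gene of the 10 was higher in all 3 pairs, against 27% of all tested genes. These 4 were also the genes with an unadjusted p below 0.05 in the blocked limma fit, against a background of 23.3%. Both counts are 1 to 2 genes above the background share in a list of 10, and nothing is read from them about the complex. The blocked p was 0.0139 for TRAF1, 0.0215 for RIPK1 and 0.0150 for FADD, with limma adjusted p of 0.142, 0.160 and 0.144. The difference between same-numbered samples was smallest in replicate 2 for BIRC3 and FADD, and in replicate 3 for RIPK1.

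The spread between replicate numbers was measured as the range of the 3 means on log2(RPKM + 1), each over the CD73 siRNA and control samples of 1 number. It was 1.51 for BIRC3, 1.04 for BIRC2 and 0.69 for TRAF1, at the percentiles 99.7, 98.5 and 94.3 among all tested genes, whose median was 0.257. It was 0.10 for TRAF2, 0.07 for CFLAR and 0.04 for IKBKG. Replicate 2 was the highest sample in both groups in 4 of the 10 genes, BIRC2, BIRC3, TRAF1 and CFLAR, against 22.7% of all tested genes. The spread between numbers was larger than the siRNA difference for BIRC2, BIRC3, TRAF1, TRADD, MAP3K7, TRAF2 and, by little, FADD. It was not larger for RIPK1, CFLAR and IKBKG. Whether the numbers mark days, passages or plates is not given in the sources used here.

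**Figure D3:**
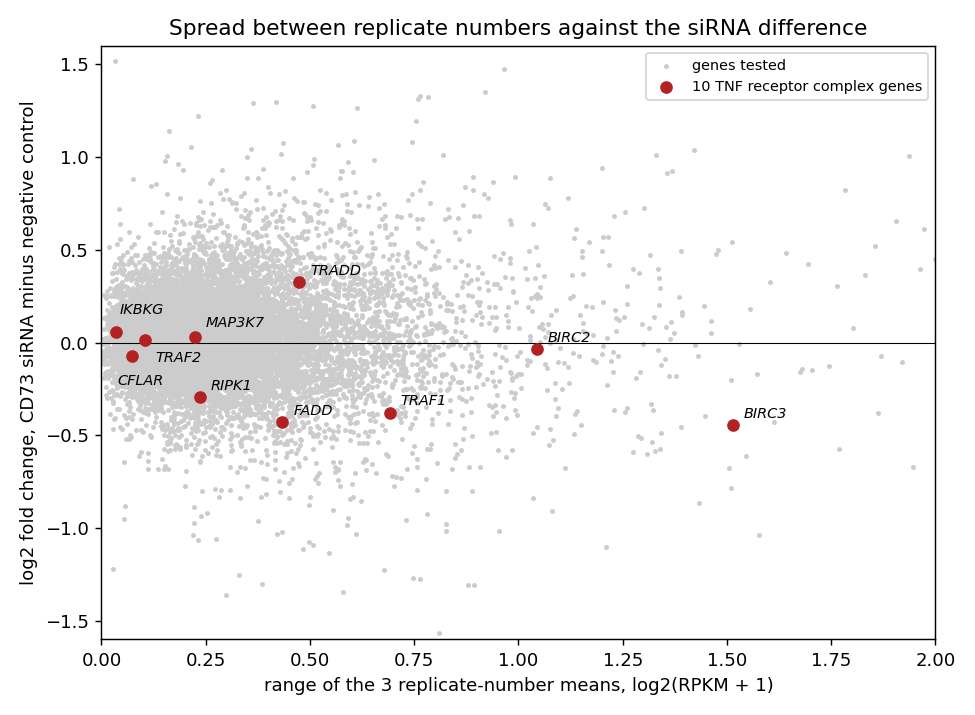
Range of the replicate-number means (x axis, log2(RPKM + 1)) against the log2 fold change of CD73 siRNA over negative control (y axis) for the tested genes (grey) and the 10 genes of the complex (red); 12 tested genes lie outside the axes. BIRC3 at 1.51 and BIRC2 at 1.04 lie far to the right of most genes, with fold changes of -0.44 and -0.03.

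Among the 10 genes, the most alike over the 6 samples were BIRC3 and TRAF1 (Pearson r = 0.962 on log2(RPKM + 1)), FADD and RIPK1 (r = 0.943) and BIRC3 and BIRC2 (r = 0.91). These values describe 6 samples that share library and replicate number. The tested genes most like FADD were DLX1, DCTPP1 and GLG1 (r = 0.998, 0.996 and 0.996 over the 6 samples), the highest of 12526 comparisons. DLX1 is a homeobox transcription factor, DCTPP1 a pyrophosphatase of dCTP, and GLG1 a Golgi membrane protein. DLX1 stood at 70.2% of control, DCTPP1 at 79.4% and GLG1 at 92.8%.

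Around these 10 genes, 43 further genes of the complex and its neighbours were listed, of which 42 were in the files and 37 passed the filter. With limma, 2 of the 37 rose and 2 fell at an unadjusted p below 0.01, where 1.82% of all tested genes rose and 1.31% fell, and 0 had an adjusted p below 0.05. Their median log2 fold change was -0.04, against 0.01 over all tested genes. The 2 that fell were UBE2D1 and MAP3K14, and the 2 that rose were TRAF3 and BIRC5. Every knockdown sample was below every control in 8 of the 37, against 8.07% of all tested genes. It was above every control in 3 of the 37, against 10.3%.

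UBE2D1, a ubiquitin-conjugating enzyme that works with RING ligases such as the cIAPs, had 4.48, 4.74 and 4.87 RPKM in CD73 knockdown replicates 1, 2 and 3 and 6.74, 8.44 and 7.36 RPKM in controls. The groups did not overlap, at a log2 fold change of -0.58 (standard error 0.11, unadjusted p = 0.000920, limma adjusted p = 0.303), and it passed under all 11 alternatives. Its relatives UBE2D2 and UBE2D3 had log2 fold changes of 0.06 and -0.20 and did not pass, and UBE2L3, the partner of the linear ubiquitin ligase and the most abundant of the conjugating enzymes tested, had -0.23 (adjusted p = 0.407). Of the 6 tested enzymes 1 fell and 0 rose. In 3 of the 6, UBE2D1, UBE2D3 and UBE2L3, every knockdown sample was below every control, against 8.07% of all tested genes.

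TRAF3 and MAP3K14 (NIK) belong to the noncanonical arm, in which TRAF3, TRAF2 and the cIAPs mark the NIK protein for degradation. The values here are of RNA, and a link between TRAF3 and MAP3K14 was not tested. TRAF3 had 10.04, 10.9 and 12.02 RPKM in CD73 knockdown replicates 1, 2 and 3 and 6.22, 8.04 and 7.91 RPKM in controls. Every knockdown sample was above every control, at a log2 fold change of 0.52 (standard error 0.13, unadjusted p = 0.00348, limma adjusted p = 0.303), and it did not pass without CD73 siRNA replicate 2 (0.52) or replicate 3 (0.46). MAP3K14 had 12.7, 17.9 and 14.1 RPKM after knockdown and 27.2, 22.3 and 19.5 RPKM in controls. Its groups did not overlap either, at a log2 fold change of -0.60 (standard error 0.16, unadjusted p = 0.00612, limma adjusted p = 0.305). It did not pass without the filter, nor without CD73 siRNA replicate 1 (-0.49) or 3 (-0.56) or control replicate 1 (-0.47) or 2 (-0.61). Of the 8 tested kinases and partners of TAK1 and IKK 1 fell and 0 rose, and TAB2, the most abundant by mean, had a log2 fold change of 0.08 (adjusted p = 0.875).

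BIRC5 (survivin), an IAP family member that acts in mitosis, had 76.9, 66.3 and 67.4 RPKM in CD73 knockdown replicates 1, 2 and 3 and 41.0, 59.7 and 50.4 RPKM in controls. The groups did not overlap, with a log2 fold change of 0.48 (limma adjusted p = 0.319). Its unadjusted p of 0.009997 was at the limit, was 0.0111 in the blocked fit and was over it under 10 of 11 alternatives, the exception being without control replicate 2. Of the 9 tested further TRAF and IAP genes 2 rose and 0 fell. XIAP had a log2 fold change of -0.17 (adjusted p = 0.648).

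Of the 10 genes of the linear ubiquitin ligase and the deubiquitinases, 0 passed in either direction. A lower mean was found in 7, against 6016 of all 12527 tested genes. The ligase genes RNF31, RBCK1 and SHARPIN had log2 fold changes of -0.11, 0.05 and 0.11. The largest difference was in TNFAIP3 (A20), a deubiquitinase and NF-κB target, at -0.66 (standard error 0.27, limma adjusted p = 0.389). TNFAIP3 had 3.97, 6.94 and 2.93 RPKM in CD73 knockdown replicates 1, 2 and 3 and 9.71, 7.29 and 5.83 RPKM in controls, and was almost level in replicate 2. SPATA2, which tethers the deubiquitinase CYLD to the complex, had -0.66 as well and passed in the blocked fit (unadjusted p = 0.0072, limma adjusted p = 0.120), and was named after its value was seen. TNIP2, the most abundant of this list, had -0.12 (adjusted p = 0.686).

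In the cytosolic death complex CASP8 had the same mean in both groups, 6.39 ± 0.54 RPKM after CD73 knockdown and 6.39 ± 0.14 RPKM in controls (SD over 3 samples). MLKL, the effector of necroptosis, had 1.46 ± 0.32 and 2.37 ± 0.60 RPKM, a log2 fold change of -0.45 (limma adjusted p = 0.373). CASP10 was under the filter, at a mean of 0.0055 RPKM after knockdown and 0.0168 RPKM in controls. RIPK3 was not analysed here. Of the IAP antagonists, HTRA2 had a log2 fold change of 0.13 (adjusted p = 0.627), and 0 of 2 tested genes passed.

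**Figure D4:**
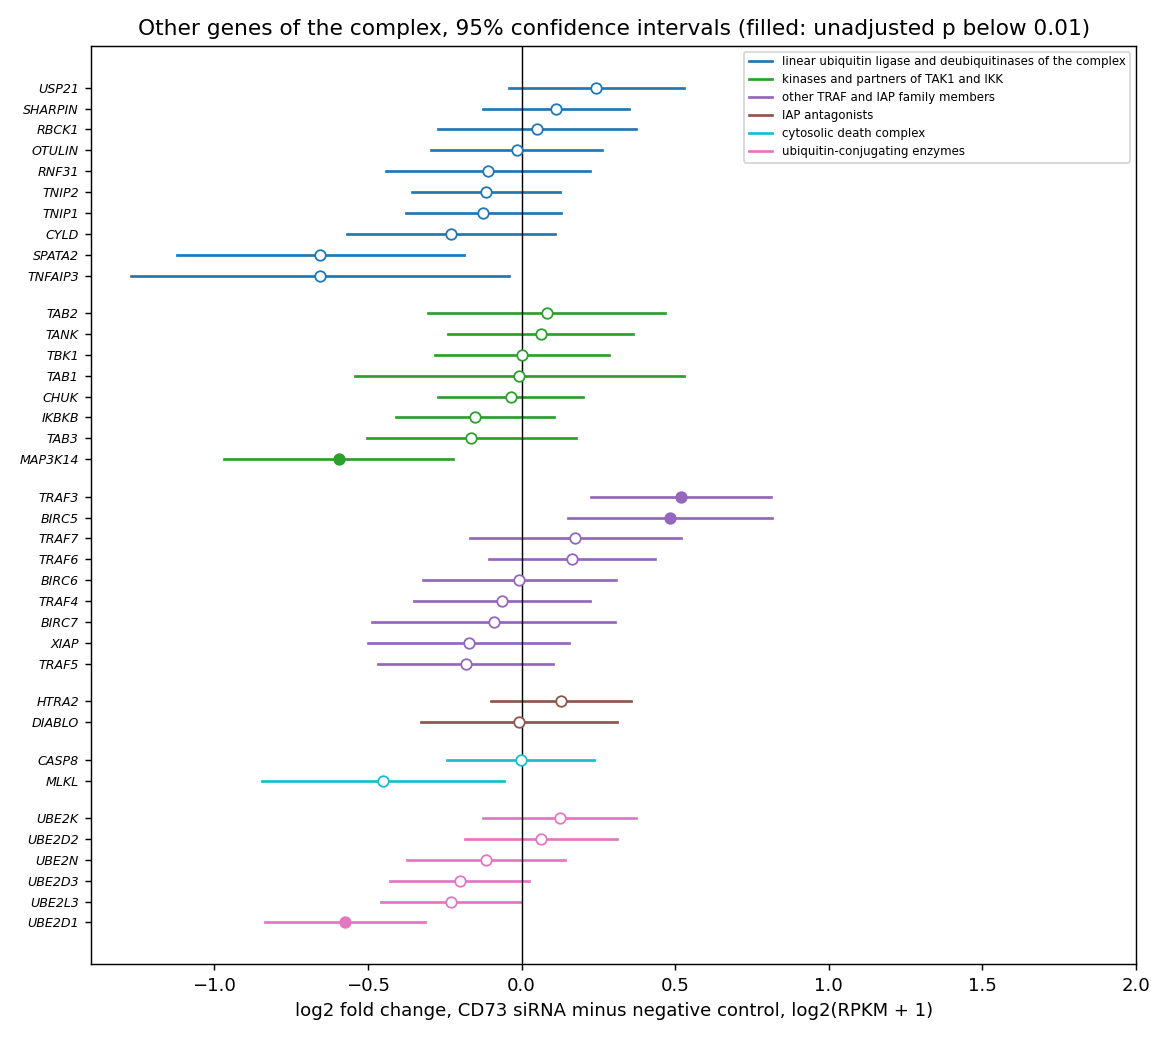
Log2 fold change (x axis, log2(RPKM + 1), CD73 siRNA minus negative control) of the 37 further genes tested, grouped and coloured by list, with limma's 95% confidence intervals; filled points have an unadjusted p below 0.01. UBE2D1 and MAP3K14 lie to the left at -0.58 and -0.60, and TRAF3 and BIRC5 to the right at 0.52 and 0.48.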

How the data were processed

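Total RNA of transfected PANC-1 cells was sequenced after standard Illumina library preparation in 6 samples. The authors deposited 1 table per sample with an RPKM value for each of 30735 Ensembl genes. Their processing notes name bcl2fastq, Bowtie2 2.2.3, HTSeq 0.6.0 and hg38, and the annotation and strand setting are not given in the sources used here. The unit was read from the values. Multiplied by merged exon length in GENCODE release 29 (same build), they were whole multiples of 1 step per sample (within 0.02 of a read) in 95.1% to 95.2% of genes worth fewer than 1000 reads, and the step gave reads and library totals.

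Symbols matched 30384 identifiers. Genes that reached 1 RPKM in 3 or more samples (12527) were compared on log2(RPKM + 1), which understates changes of low genes, with limma 3.58.1 (eBayes with a trend, R 4.3.3) and Benjamini-Hochberg adjustment over all tested genes. Exact permutation tests (scipy 1.17.1) were two-sided. Adjusted p-values are limma's. A gene was called at an unadjusted p below 0.01. The script was tested on simulated data. The samples are labelled as separate samples of a group, and the labels do not say whether they came from separate cultures. The paper's heatmap caption describes them as separate knockdown experiments (n = 3). The p-values measure the spread between these samples, and how much of it is technical was not tested.

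Deviations from the group means correlated at 0.197, 0.481 and 0.553 between same-numbered samples (labels of replicates 1, 2 and 3) and at -0.439 to -0.00637 between others. Deviations cancel within a group, so positive same-numbered values make the others negative on the whole, and the contrast is partly fixed in advance. Numbers were taken as pairs on the basis of the same-numbered values, which come from the same data as the tests. The 10 genes and the lists were chosen with earlier results of these data known. All 10 genes, list genes past the limit, and the most abundant and most changed gene of each list are named, with the 3 genes most like the member of smallest p. From the lists, XIAP, RNF31, RBCK1, SHARPIN, SPATA2, UBE2D2, UBE2D3, CASP10 and RIPK3 are named outside this rule.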

Additional observations from a re-analysis of the deposited data

How the results depend on the processing

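Results were recomputed with a pseudocount of 0.1, no filter, size factors, eBayes without a trend, the replicate number as a block, and each sample left out in turn. TRAF1, RIPK1, FADD, BIRC3, CFLAR, TRADD and IKBKG kept the direction of their log2 fold change under all of them. BIRC3 passed an unadjusted p below 0.01 with the replicate block (-0.44, unadjusted p = 0.00525), and TRADD without negative control replicate 2 (unadjusted p = 0.00911), and no other call of the 10 genes changed under these alternatives. Of the further genes the block lost BIRC5 and gained SPATA2, and changed no other call. The limma adjusted p of the 10 genes stayed at 0.119 or above. TRAF2 turned to -0.010 with size factors. Leaving out single samples, the log2 fold change ranged from -0.031 to 0.077 for TRAF2, from -0.36 to 0.26 for BIRC2, from -0.076 to 0.084 for MAP3K7, from -0.58 to -0.22 for TRAF1, from 0.14 to 0.55 for TRADD and from -0.91 to -0.05 for BIRC3. The count of all genes past the limit was 392, and 948 with the replicate block. It was lowest at 116 without CD73 siRNA replicate 1 and highest at 792 without negative control replicate 2. It was 188 without negative control replicate 1 and 258 without negative control replicate 3. The count of further complex genes was 4, fell to 2 with no filter, was 1 without CD73 siRNA replicate 3 and otherwise up to 4, and was 2 without CD73 siRNA replicate 1 or negative control replicate 1. The cause of these moves was not tested. At most 191 reads per sample limit the precision of TRADD.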
